A study of Homo sapiens with 4 samples.

Results

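The 45 genes described here encode proteins that signal DNA damage or repair it. They were taken as a list by symbol, chosen with earlier results of these data known. All 45 were found among the 19974 protein-coding genes of the autosomes and X in RefSeq (GRCh38.p14). The data are 2 lists of H3K9la regions, histone H3 lactylated at lysine 9, from ChIP-seq of KYSE30, an established line of oesophageal squamous carcinoma cells grown in DMEM with serum. The labels give the arms only as sg3 and V2, each with 1 anti-H3K9la ChIP library and 1 input library and no replicate, and the sources used here do not say what the names stand for. The series title names SIRT3, a sirtuin deacylase, as an eraser of H3K9la, so the question put to each gene is where the lists differ.

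DNA repair is organised by the type of lesion. Double-strand breaks are sensed by the MRE11, RAD50 and NBN complex and by the kinases ATM and ATR, and they are mended by homologous recombination or by end joining. Damaged bases and single-strand breaks are handled by base excision repair, copying errors by mismatch repair, bulky lesions by nucleotide excision repair, and crosslinks by the Fanconi pathway. Histone lactylation is derived from lactate and is known mainly as a mark of active gene starts.

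The sg3 list held 56875 regions and the V2 list 40332. With sg3 cut to its 40332 highest regions by -log10 q, it had a region at an end of 42.8% of all genes and of 30 of the 45 repair genes, and V2 at 28.8% and at 18. In the deposit, the V2 regions are attached to the input sample of that arm. All fold enrichments and -log10 q values are those the authors deposited, and they rank regions within 1 list only. In the full lists, squamous markers had a region at an end in 12 of 12 cases in sg3, against 47.2% of all genes. In V2 10 of 12 did, against 28.8%. KRT14 and SOX2 were in both lists, and TP63 and KRT5 in sg3 alone. No difference between the lists has a replicate check.

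Counted without regard to neighbouring genes, a larger share of the repair genes than of all protein-coding genes had an sg3 region near an end. For V2 the higher share lay within counting error. Within 1 kb of either gene end, sg3 regions were found at 31 of the 45 (68.9%, exact 95% interval 53.4 to 81.8%), against 47.2% of all protein-coding genes. A V2 region was present at 18 (40%, 25.7 to 55.7%), against 28.8% of all genes, which lies inside that interval. When a region had to cover the end itself, sg3 marked 24.4% of repair genes against 18.8% of all genes, and V2 6.67% against 7.4%. Both lists marked 17 genes (37.8%, against 28.3%), sg3 alone marked 14 (31.1%, against 18.9%) and V2 alone marked 1 (2.22%, against 0.501%). The other 13 had no region at an end in either list (28.9%, against 52.3%). The intervals cover counting error only. Repair genes more often have another gene close by, and the shares are given by this as well. Where an end of another gene lay within 1 kb, sg3 marked 22 of 27 repair genes (81.5%, against 63.7% of all such genes), and where none did it marked 9 of 18 (50%, against 40.6%). For V2 the counts were 12 of 27 (44.4%, against 37.3%) and 6 of 18 (33.3%, against 25.3%). No intervals were computed for these smaller groups or for regions covering the end itself. Whether the higher sg3 share holds apart from neighbouring genes was not tested. A further list of 75 repair genes holds none of the 45. It was also chosen with results of these data known, so it is no independent check. Of the 75, 49 were marked in sg3 (65.3%, against 47.2% of all genes), 25 in both lists (33.3%, against 28.3%) and 0 in V2 alone. Among these, H2AX, TOPBP1, RNF168 and FEN1 were in both lists, RPA1, BLM and EXO1 in sg3 alone, and LIG1, RAD51D and XRCC2 in neither.

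**Figure D1:**
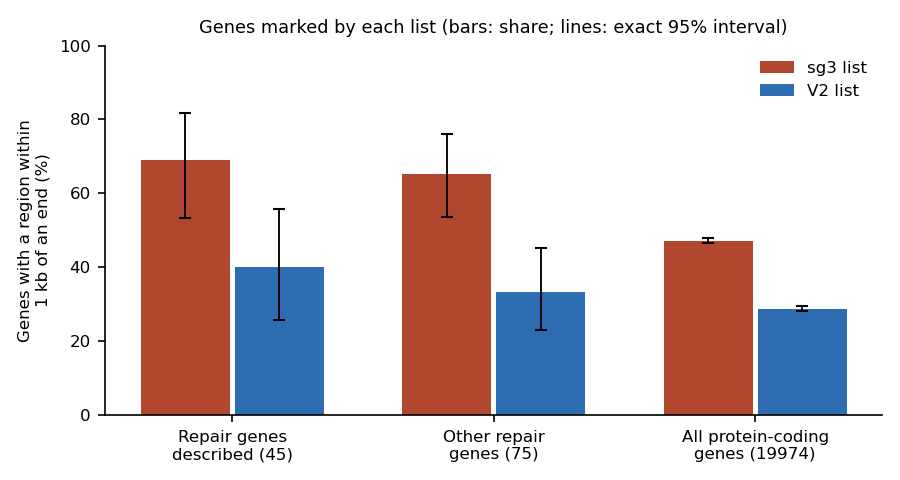
Bars give the share of genes, in percent, with a region within 1 kb of an end in the sg3 list (red) and the V2 list (blue), and lines give exact 95% intervals. The 45 repair genes stood at 68.9% and 40%, the 75 other repair genes at 65.3% and 33.3%, and all 19974 protein-coding genes at 47.2% and 28.8%.

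Regions of repair genes sat beside the start and left the promoter itself mostly uncovered. A table of RefSeq starts gives strand and starts for 40 of the 45 genes, and it does not list NBN, XRCC5, PRKDC, POLB and FANCI. For some genes, TP53BP1, MRE11 and RAD52 among them, it lists only part of the known starts. Positions are counted in bases from the start, negative before it. Of these 40 genes, 22 (55%) were covered by an sg3 region at position 150 from the first listed start, 4 (10%) at -100 and 16 (40%) at -550. Over the 15813 protein-coding genes with a listed start, the share was 35.4% at 150, 12.6% at -100 and 19.3% at -550. It was highest at 300, with 37.8%. In V2, 10 repair genes were covered at 150 (25%, against 17.4% of all genes), 3 at -150 (7.5%, against 4.73%) and 7 at -700 (17.5%, against 8.24%). Summits, the points of highest signal, showed the same gap. Of 38 sg3 summits of repair genes within 1 kb of a listed start, 24 lay downstream (63.2%, against 65.9% over all genes). Their median position was 277, and those upstream had a median of -503, against 297 and -498 over all genes. Only 3 lay within 150 bases of the start (7.89%, against 10.7% over all genes). In V2, 0 of 24 did (10% over all genes).

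**Figure D2:**
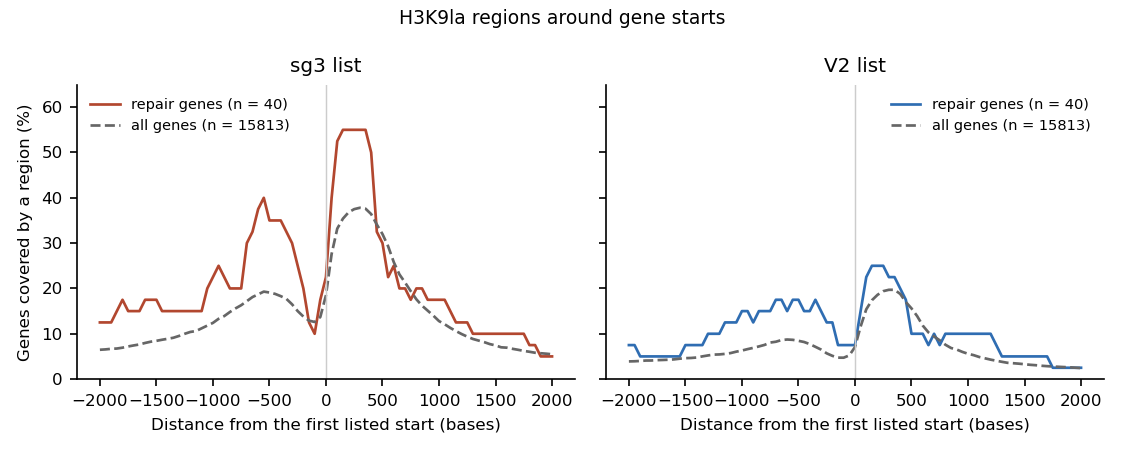
The share of genes, in percent, covered by a region at each distance (bases) from the first listed start is drawn every 50 bases, in the sg3 list on the left and the V2 list on the right. Solid lines are the 40 repair genes with a listed start and dashed lines the 15813 protein-coding genes; both fall just before the start and rise on either side of it.

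The 250 bases before the start are shown for 6 genes, because coverage by regions dipped within this stretch and because the genes span the patterns seen. Among the 6, ERCC5 alone had sg3 summits within 1 kb on both sides of its start. BARD1 (chr2:214809684-214809933, minus strand) had the strongest sg3 start region of the 17 genes in both lists apart from ERCC1, and LIG3 (chr17:34980262-34980511, plus strand) had nearly the same region in both. ERCC5 (chr13:102845782-102846031, plus strand) and FANCA (chr16:89816648-89816897, minus strand) were marked in sg3 alone, MDC1 (chr6:30717282-30717531, minus strand) in V2 alone and PARP1 (chr1:226408094-226408343, minus strand) in neither. The letters are from RefSeq (GRCh38.p14), read 5′ to 3′ on the gene's strand, and capitals mark a GC box (GGGCGG) or a CCAAT box (CCAAT) on either strand.
BARD1: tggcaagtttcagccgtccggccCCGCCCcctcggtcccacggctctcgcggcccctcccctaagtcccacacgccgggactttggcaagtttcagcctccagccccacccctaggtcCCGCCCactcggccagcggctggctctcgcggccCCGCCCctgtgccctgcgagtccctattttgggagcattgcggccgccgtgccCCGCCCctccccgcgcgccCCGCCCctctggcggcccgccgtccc
LIG3: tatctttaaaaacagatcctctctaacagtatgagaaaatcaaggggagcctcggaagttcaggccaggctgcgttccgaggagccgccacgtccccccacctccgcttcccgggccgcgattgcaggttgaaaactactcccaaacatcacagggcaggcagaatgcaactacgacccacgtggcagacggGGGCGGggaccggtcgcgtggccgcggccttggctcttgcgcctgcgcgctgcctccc
ERCC5: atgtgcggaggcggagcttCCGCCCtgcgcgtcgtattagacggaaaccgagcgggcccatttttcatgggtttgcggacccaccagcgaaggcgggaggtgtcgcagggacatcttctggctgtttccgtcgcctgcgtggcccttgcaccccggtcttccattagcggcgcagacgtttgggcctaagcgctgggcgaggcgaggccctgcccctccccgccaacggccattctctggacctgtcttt
FANCA: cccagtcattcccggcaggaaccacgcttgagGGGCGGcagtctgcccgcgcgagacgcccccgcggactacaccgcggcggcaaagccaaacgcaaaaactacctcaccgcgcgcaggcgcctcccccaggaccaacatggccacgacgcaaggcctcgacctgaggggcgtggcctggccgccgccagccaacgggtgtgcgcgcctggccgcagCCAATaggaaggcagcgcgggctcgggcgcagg
MDC1: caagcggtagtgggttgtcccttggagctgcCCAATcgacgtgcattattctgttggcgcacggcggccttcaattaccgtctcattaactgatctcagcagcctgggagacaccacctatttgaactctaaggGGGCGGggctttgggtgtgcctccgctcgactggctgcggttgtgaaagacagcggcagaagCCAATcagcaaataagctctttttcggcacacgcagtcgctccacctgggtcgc
PARP1: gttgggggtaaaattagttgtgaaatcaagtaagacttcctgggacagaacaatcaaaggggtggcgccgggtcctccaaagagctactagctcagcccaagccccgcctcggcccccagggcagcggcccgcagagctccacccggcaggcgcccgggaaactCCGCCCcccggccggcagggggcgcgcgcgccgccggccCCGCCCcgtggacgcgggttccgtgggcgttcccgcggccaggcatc
BARD1 holds 5 GC boxes, PARP1 2, and the other 4 genes 1 each, while CCAAT boxes occur in FANCA (1) and MDC1 (2). Of these windows, sg3 regions covered 98 bases in LIG3, 21 bases in BARD1 and none in the other 4, and V2 regions covered none of the 6.

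Promoters of marked and unmarked repair genes lay close to each other in base composition. Promoters were grouped by regions within 1 kb of the same start. The 12 repair promoters with none had a median GC content of 65.6% and a median of 21 CG pairs in the 250 bases, against 62.8% and 21.5 for the 14 in both lists and 63.6% and 22 for the 13 in sg3 alone. Over all genes the medians were 58.4% and 10 for promoters with no region and 66.4% and 22 for those in both lists. PARP1, with 26 CG pairs, and MSH6, with 34, were both without a region. Of 6 motifs searched on both strands, the GC box was found in 26 of 40 repair promoters (65%, against 56% of all 15811 promoters) and the CCAAT box in 18 (45%, against 34.4%). The ETS motif CCGGAAGT was found in 7 (17.5%, against 5.1%). The CRE TGACGTCA, the NRF1 motif GCATGCGC and the E2F motifs TTTCCCGC or TTTGGCGC were each found in 2 (5%, against 2.32%, 3.71% and 2.6%). A match describes these letters and does not show that a factor is bound.

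Many repair genes start back to back with another gene, so their regions often belong to a pair. An end of another protein-coding gene lay within 1 kb of an end of 27 of the 45 (60%, against 28.6% of all protein-coding genes). A neighbour on the opposite strand started within 1 kb of the start in 17 of 40 (42.5%, against 13.7%). The distance between these starts ran from 18 bases for XRCC1 and PINLYP to 528 bases for RAD51C and IGBP1C. ATM with NPAT, BRCA2 with ZAR1L, CHEK2 with HSCB, PALB2 with DCTN5, DDB1 with TKFC and XPC with LSM3 are of this kind. Of the 17 genes, 15 had an sg3 region at a listed start (88.2%, against 73.3% of all such genes) and 8 a V2 region (47.1%, against 42.6%). Neighbours were sought at the outer start of each gene, and regions at any listed start. The 15 therefore include MRE11, whose sg3 region lay 18639 bases from the end it shares with C11orf97. Of the 23 without such a neighbour, 13 had an sg3 region (56.5%, against 45.1%) and 8 a V2 region (34.8%, against 27.5%). Regions in sg3 stood on both sides of a start in 10 of the 28 repair genes marked at a listed start (35.7%, against 24.2% of all such genes), which were BRCA1, PALB2, XRCC1, XRCC4, XRCC6, LIG4, APEX1, PMS2, ERCC5 and DDB2. Of these, 8 were head-to-head genes (53.3% of the marked ones, against 33.8% over all genes), and ERCC5 and DDB2 were not (15.4%, against 21.8%). The lists give no way to assign a shared region to a member of the pair.

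Pathway counts are small, and their intervals hold the all-gene shares of 47.2% for sg3, 28.8% for V2 and 28.3% for both lists except that of sg3 in end joining, so they describe these genes only. In damage signalling 5 of 10 genes were marked in sg3 (50%) and 3 in V2 (30%), near the shares of all genes. ATRIP, the partner that carries ATR to exposed single strands, had a weak sg3 region just past its start (fold enrichment 3.1, -log10 q 11.1) and a strong one at its 3′ end (12.7, -log10 q 75.5). V2 marked only the 3′ end (13.3, -log10 q 61.2), where TREX1 and SHISA5 also have an end, so at its start ATRIP was an sg3-only gene. ATM, the kinase that answers to double-strand breaks, had a region 521 bases before its start in sg3 (10.8, -log10 q 27.3) and 637 bases before it in V2 (5.29, -log10 q 5.96), on the side of NPAT. The checkpoint kinases were marked in sg3 alone. CHEK2, activated by ATM, had a region 215 bases before its start (6.01, -log10 q 30.0). CHEK1, activated by ATR, had one starting 361 bases inside the gene as annotated (4.89, -log10 q 13.7). The summit of the CHEK1 region lay at -476 from the nearest listed start, which is further inside the gene. The nearest V2 regions lay 12812 and 33591 bases from these genes. CHEK2, like PMS2 and FANCD2, has partial copies elsewhere in the genome, and its values are uncertain because the sources used here do not say how reads with several alignments were treated.

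In the break-sensing complex, RAD50, its coiled-coil ATPase, had a weak sg3 region across the start (3.43, -log10 q 8.08). No V2 region matched it within 44345 bases, and IL5 also has an end within 1 kb of it. MRE11, the nuclease of the complex, and NBN, its adaptor, had no region at an end in either list. An sg3 region did lie at the start listed inside MRE11 (4.56, -log10 q 10.5). For NBN the nearest regions lay 30199 bases away in sg3 and 31995 in V2. ATR also had none at an end, although regions of both lists lay just outside the window, at 1198 bases (sg3) and 1207 bases (V2) from an end. MDC1, which binds the damage mark on chromatin, was the V2-only gene, with a region 676 bases before its start (5.62, -log10 q 6.85, rank 33073 of 40332 in that list). The nearest sg3 region lay 11659 bases away. MDC1 lies in the major histocompatibility complex region of chromosome 6, of which the genome build holds alternate contigs. These took 635 sg3 and 405 V2 records, and their part in the MDC1 result was not tested.

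**Figure D3:**
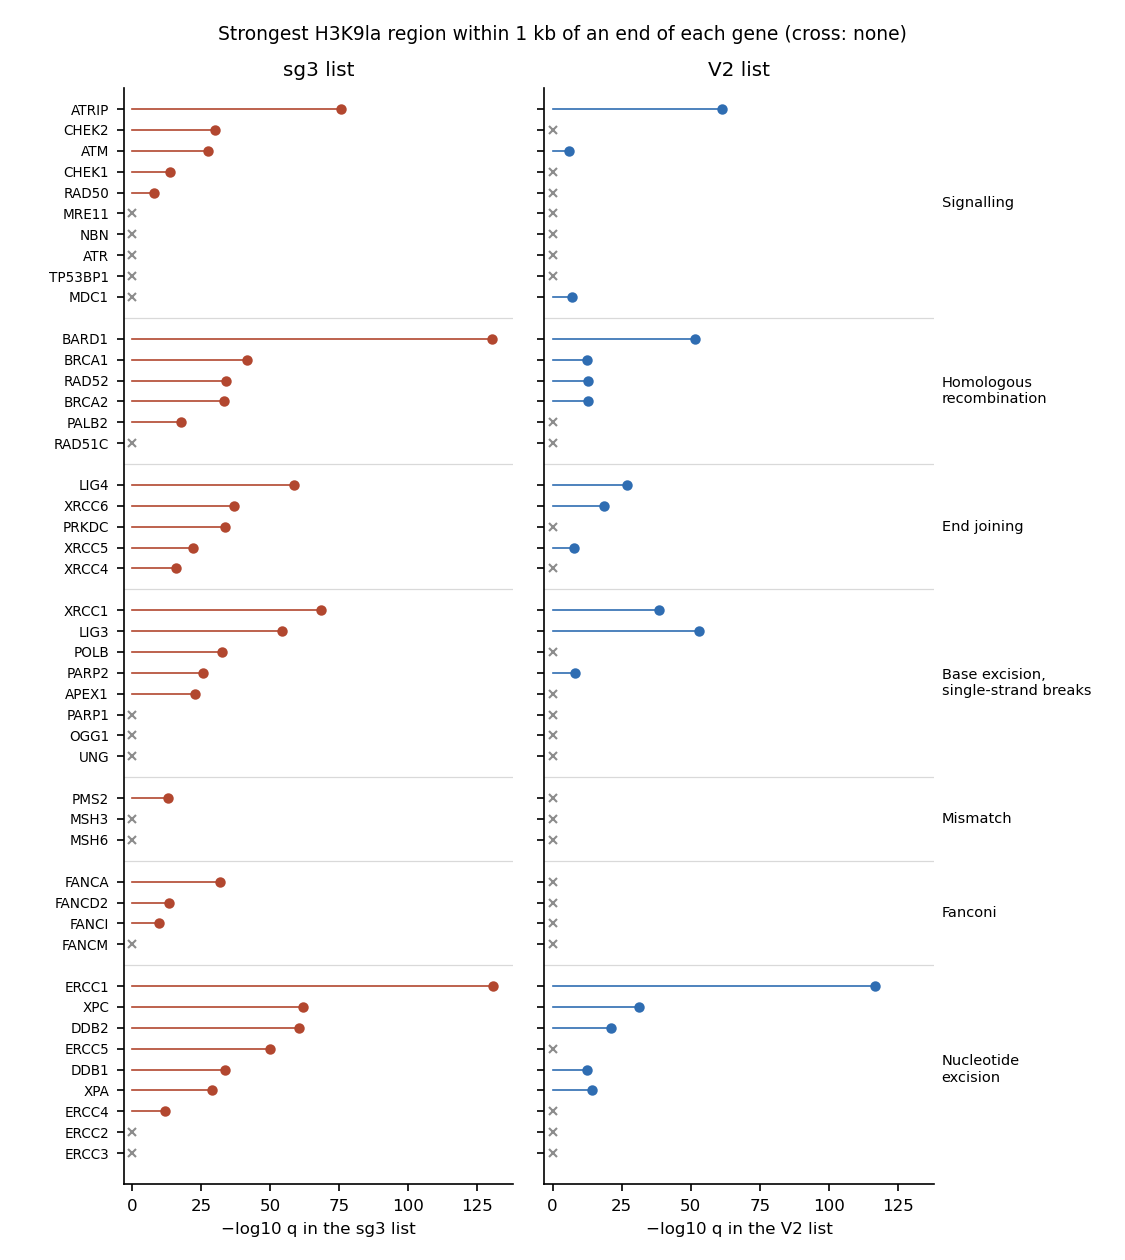
Each row is a repair gene and each point the -log10 q of its strongest region within 1 kb of an end, in the sg3 list on the left and the V2 list on the right, with a cross where there is none. ERCC1 and BARD1 stand highest in sg3 (131 each) and ERCC1 in V2 (117), and the values of the lists are not on a common scale. The regions drawn for ERCC1 have their summits beyond the gene.

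Homologous recombination, which copies the sister chromatid to mend a break, had 5 of 6 genes marked in sg3 (83.3%) and 4 of 6 in both lists (66.7%, exact 95% interval 22.3 to 95.7%, against 28.3% of all genes). BARD1, the RING partner of BRCA1, had an sg3 region of 1803 bases across its start with a fold enrichment of 18, the highest at an end of any of the 45 genes. Its -log10 q of 131 ranked 209 of 56875 in the sg3 list. The V2 region there was 598 bases wide (8.03, -log10 q 51.6) and its summit lay 13 bases from that of sg3. A further region upstream of BARD1 was 2525 bases wide in sg3 (13, -log10 q 40.6) and 393 bases in V2 (6.86, -log10 q 14.3). BRCA1, the breast cancer ubiquitin ligase, had 3 sg3 regions at the end it shares with NBR1 (fold enrichments 7.68, 11.2 and 5.57) and 2 V2 regions (4.28 and 5.90). The outer starts of BRCA1 and NBR1 lie 82 bases apart, so these regions cannot be assigned to either gene. The other listed start of BRCA1, 43125364 on chromosome 17 and inside the gene, was flanked in both lists as well. Regions there were counted as inside the gene and not as at an end. The sg3 summits there lay at positions 399 (7.26) and -791 (8.8), and the V2 summits nearest to them at 402 (6.75) and -784 (5.47).

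BRCA2, a mediator of homologous recombination, had a region at its start in both lists, of 1378 bases in sg3 (8.08, -log10 q 33.4) and 780 bases in V2 (4.37, -log10 q 13). RAD52, a strand-annealing protein, had nearly the same region in both, of 1399 and 1279 bases (6.59 and 3.77). The region crossed the higher-coordinate end of the gene, with summits at -385 in sg3 and -366 in V2 from that end, and ERC1 has an end within 1 kb of the region. PALB2, which joins BRCA1 to BRCA2, was marked in sg3 alone, by a region over its start (5.26, -log10 q 17.7) and one on the side of DCTN5 (4.37, -log10 q 10.9). The nearest V2 region lay 44892 bases away. RAD51C, which also acts in homologous recombination, was unmarked, with the nearest regions at 32462 bases in sg3 and 58780 in V2.

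End joining, which ligates broken ends directly, was marked in sg3 at all 5 of its genes (exact 95% interval 47.8 to 100%, against 47.2% of all genes) and in V2 at 3 (60%, 14.7 to 94.7%, against 28.8%). LIG4, its ligase, had the strongest region, on the side of ABHD13 (8.39, -log10 q 58.7 in sg3 and 5.82, -log10 q 27 in V2), with summits 2 bases apart. A second pair of regions inside LIG4 (3.78 in sg3 and 3.15 in V2) was the only shared pair of the 25 at repair genes in which V2 had the wider region. The Ku subunits XRCC6 and XRCC5 bind the broken ends. XRCC6 was flanked by sg3 regions with summits at 297 (8.36, -log10 q 36.9) and -561 (6.44, -log10 q 34.1), and V2 held the upstream region alone (5.42, -log10 q 18.6), on the side of DESI1. XRCC5 had 1 region at its lower-coordinate end in each list (8.27, -log10 q 22.1 in sg3 and 5.95, -log10 q 7.76 in V2). XRCC4, the scaffold of LIG4, had 2 sg3 regions around its start (6.0 and 5.42) and no V2 region within 1105083 bases. TMEM167A also has an end within 1 kb of both sg3 regions. PRKDC, the catalytic kinase that Ku recruits, had 2 sg3 regions at the end it shares with the replication helicase gene MCM4 (2.51, -log10 q 5.69, and 5.44, -log10 q 33.6), the stronger on the MCM4 side, and the nearest V2 region lay 9351 bases away.

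**Figure D4:**
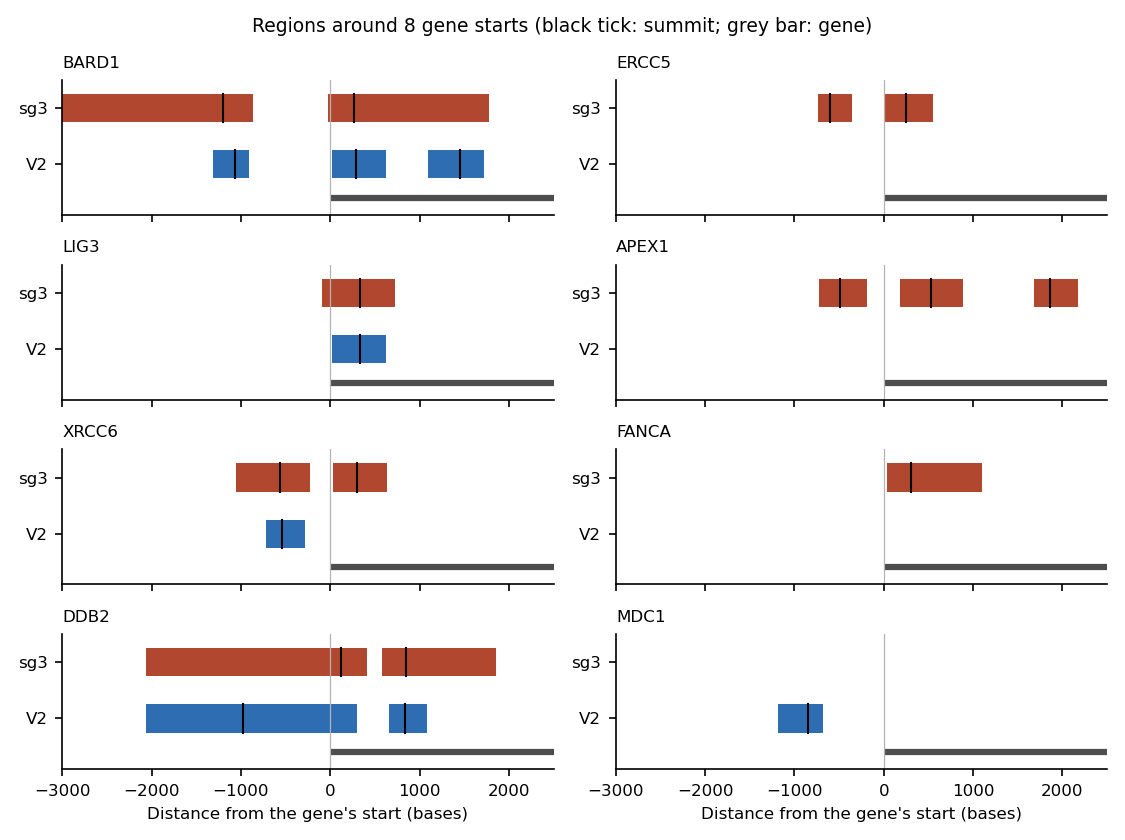
Regions of the sg3 list (red) and the V2 list (blue) are drawn by distance in bases from the start of 8 repair genes, with black ticks at summits and a grey bar for the gene. Regions of BARD1, LIG3, XRCC6 and DDB2 coincide between the lists in part, those of ERCC5, APEX1 and FANCA are in sg3 alone, and the region of MDC1 is in V2 alone.

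Base excision and single-strand break repair had 5 of 8 genes marked in sg3 (62.5%, against 47.2% of all genes) and 3 of 8 in V2 (37.5%, against 28.8%). XRCC1, the scaffold of single-strand break repair, was flanked in both lists, with the stronger region on the side of PINLYP (9.62, -log10 q 68.3 in sg3 and 6.58, -log10 q 38.5 in V2) and the weaker at the start itself in sg3 and just inside it in V2 (4.8 and 3.65). LIG3, the ligase that works with XRCC1, had a region with its summit 329 bases past the start in both lists, the same base in each. Its -log10 q was 54.2 in sg3 and 53.1 in V2, which placed it in the top 7.1% of the sg3 list and the top 4.64% of the V2 list. PARP2, a sensor of strand breaks, was marked upstream of its start in both lists, by a region of 1083 bases in sg3 (10.3, -log10 q 25.7) and 422 bases in V2 (4.41, -log10 q 8.15) whose summits lay 681 bases apart. POLB, the gap-filling polymerase, had a region across its lower-coordinate end in sg3 alone (8.54, -log10 q 32.7). APEX1, the abasic-site endonuclease, had 3 sg3 regions (9.67, 8.79 and 6.38) and none in V2 within 3285 bases. The stronger pair flanked its start, which it shares with OSGEP. The values of the first (9.67, -log10 q 22.8) recur exactly in 39 sg3 records, XPC's among them. PARP1, the main sensor of strand breaks, and the glycosylase genes OGG1 and UNG were unmarked. Regions lay 1177 bases (sg3) and 2052 bases (V2) from OGG1, and 4362 and 146952 bases from UNG.

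Mismatch repair had 1 of 3 genes marked in sg3 and 0 of 3 in V2 (exact 95% interval 0 to 70.8%), and the Fanconi pathway 3 of 4 in sg3 and 0 of 4 in V2 (0 to 60.2%), and both V2 intervals hold the all-gene share of 28.8%. PMS2, a subunit of the nicking complex of mismatch repair, had 2 weak sg3 regions around the start it shares with AIMP2 (3.53, -log10 q 13, and 2.93, -log10 q 10.8). MSH3 and MSH6, which recognise mismatches, were unmarked, and the nearest regions lay 29872 bases (V2) from MSH3 and 94433 bases (sg3) from MSH6. FANCA, a scaffold of the Fanconi core complex, had an sg3 region of 1073 bases past its start (5.5, -log10 q 31.7), with the nearest V2 region at 7439 bases. FANCD2 and FANCI, the pair that the core complex ubiquitinates, had narrow sg3 regions just inside the gene end, of 376 bases (6.58, -log10 q 13.3) and 359 bases (4.64, -log10 q 9.78). FANCM, the translocase that finds stalled forks, was unmarked, with the nearest sg3 region 52692 bases away.

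Nucleotide excision repair had 7 of 9 genes marked in sg3 (77.8%, 40 to 97.2%, against 47.2% of all genes) and 5 in both lists (55.6%, 21.2 to 86.3%, against 28.3%). ERCC1, the non-catalytic subunit of an incision nuclease, had the regions with the highest -log10 q of the 45 genes, with summits beyond the gene, at -3801 in sg3 and -3812 in V2. It counts as marked in neither list when the summit must lie within 1 kb. An sg3 region of 30308 bases (12.8, -log10 q 131) crossed its higher-coordinate end and reached FOSB, and in V2 regions of 1639 bases (9.99) and 12321 bases (14.1, -log10 q 117) lay at that end. A further sg3 region at its other end (9.99, -log10 q 59.9) lay beside PPP1R13L and POLR1G, and the 2 V2 regions it overlapped lay more than 1 kb from ERCC1. The internal listed starts of ERCC1 near 45423528 on chromosome 19 had regions in both lists too, with summits 225 bases (sg3, 9.15) and 300 bases (V2, 5.53) past that start. Its catalytic partner ERCC4 had only a weak, narrow sg3 region (3.79, -log10 q 12.1). ERCC5, the other incision nuclease, had the strongest sg3-only region of the 45 genes, 246 bases past its start (10.7, -log10 q 49.8), and a weaker one upstream (5.86, -log10 q 9.59). No V2 region lay within 248459 bases.

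The damage-recognition genes of nucleotide excision repair were marked in both lists. XPC, which finds distorted helices, had 3 regions in each list. Those at its start, beside LSM3, had summits 17 bases apart (9.25, -log10 q 61.9 in sg3 and 6.74, -log10 q 31.3 in V2), and 2 more in each list lay at its 3′ end near TMEM43. DDB2, the ultraviolet damage sensor, had 2 regions in each list with the higher -log10 q of sg3 (60.6) in the one inside the gene, whose summits lay 10 bases apart. The wider region across the start measured 2471 bases in sg3 and 2365 in V2, with summits 1098 bases apart. DDB1, the adaptor of DDB2, had 1 region past its start in each list (5.78, -log10 q 33.6 and 3.71, -log10 q 12.4). XPA, the damage verifier, had a region with its summit at 271 in sg3 and 261 in V2, with low fold enrichments of 3.98 and 2.96. The helicases of the repair factor TFIIH, ERCC2 and ERCC3, were unmarked, and the nearest region lay 28892 bases from ERCC2 and 28314 bases from ERCC3, both in sg3.

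Where the lists overlapped at a repair gene, most summits were close, much as at all genes. Of 49 sg3 regions at ends of repair genes, 25 overlapped a V2 region (51%, against 53.3% of sg3 regions at ends of all genes). Among 26 V2 regions, 25 had an sg3 region beneath them (96.2%, against 96.7%), and the exception was the region of MDC1. The lists gave 25 overlapping pairs at an end of the same gene, in which the summits lay a median of 31 bases apart (41 over all genes) and within 100 bases in 19 (76%, against 72%). The exceptions included PARP2, DDB2 and ERCC1, with distances of 681, 1098 and 4818 bases. The sg3 region was the wider in 24 of 25 pairs (96%, against 93.3%), with a median ratio of widths of 1.56 (1.5 over all genes). Median fold enrichment of the regions at ends of repair genes was 6.44 in sg3, against 5.16 at ends of all genes, and 5.72 in V2, against 4.61. Their median -log10 q was higher than at all genes in sg3 (27.3, against 20.6) but lower in V2 (13.6, against 16.3). At least 2 sg3 regions lay at ends of 15 of the 31 marked genes (48.4%, against 37.8% of all marked genes).

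The sg3-only genes were those with weaker sg3 regions, as among all genes. The strongest sg3 region of a gene had a median -log10 q of 16.7 over the 14 sg3-only genes (range 8.08 to 49.8) and 41.7 over the 17 genes in both lists (22.1 to 131), against 14.7 and 37.5 over all genes. None of the 8 repair genes with a -log10 q under 20 in sg3 was marked in V2 (0 of 2 under 10 and 0 of 6 from 10 to 20), where 14.8% and 31.7% of all genes were. From 20 to 40, V2 marked 8 of 13 repair genes (61.5%, against 68.4%), and the 5 without it were CHEK2, PRKDC, POLB, APEX1 and FANCA. At 40 or more it marked 9 of 10 (90%, against 95.4%), and the exception was ERCC5. The counts in each range are small, and the shares of repair genes lay near those of all genes in the upper ranges. Read depth is not stated for either list, so a region missing from V2 was not detected there and is not shown to be absent.

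**Figure D5:**
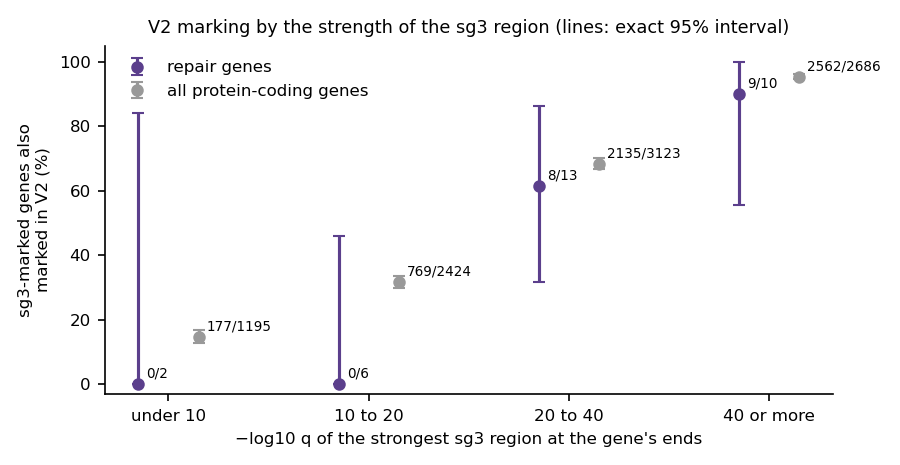
Points give the share, in percent, of sg3-marked genes that V2 also marked, by the -log10 q of the gene's strongest sg3 region, with exact 95% intervals as lines and counts beside them. Repair genes (purple) rose from 0 of 2 and 0 of 6 to 8 of 13 and 9 of 10, and all protein-coding genes (grey) from 177 of 1195 to 2562 of 2686.

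Some unmarked genes had regions further inside. TP53BP1, which steers breaks towards end joining, had a region 17463 bases inside from its start in sg3 (9.89, -log10 q 28.3) and 17482 bases in V2 (6.84, -log10 q 13.8), with summits at 43492971 and 43492972 on chromosome 15. The table of starts lists only 1 of the known starts of TP53BP1. Whether these regions lie at a start that it leaves out was not tested. The start that the table lists for MRE11, 94493844 on chromosome 11, lies inside the gene as annotated. An sg3 region stood 300 bases past it by its summit (4.56, -log10 q 10.5) with no V2 region. ANKRD49 also has an end within 1 kb of that sg3 region. In all, 8 of the 45 genes held an sg3 region inside the gene and away from the ends (17.8%, against 24.4% of all genes) and 7 a V2 region (15.6%, against 18.2%). LIG4 and DDB2 each had such a region in V2 without an sg3 partner (3.78, -log10 q 3.61, and 3.44, -log10 q 6.21). By the nearest region of each list to a gene end, the genes closest to the 1 kb limit were, on the inside, MDC1 (676 bases in V2), ATM (637 bases in V2) and PARP2 (526 bases in sg3), and on the outside OGG1 (1177 bases in sg3) and ATR (1198 bases in sg3).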

How the data were processed

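Per the labels, 4 samples of KYSE30 cells were deposited as 1 ChIP and 1 input library for each of the arms sg3 and V2. The submitters' processing notes list SAMtools 1.18, MACS2 2.2.9.1, Bowtie2 2.5.1, FastQC 0.12.1 and Trim Galore 0.6.10, and the build hg38, with no parameters. The authors called 1 region list per arm and deposited it in the MACS2 layout. The fold enrichment, a ratio at the summit, was computed by the authors' caller, as deposited. The authors deposited -log10 p and -log10 q for each region as the caller made them. The integer score and the summit offset were also made by the authors' caller, and the score was not used further. The sources used here do not give the command line, control library, duplicate handling or depth.

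With Python 3.11.15, a gene was called marked when any base of a region lay within 1 kb (1000 bases) of either end in RefSeq GRCh38.p14. Overlap needed 1 base. No records of a list overlapped. Starts and promoter letters came from a RefSeq table covering 15813 of the 19974 genes. Shares have exact Clopper-Pearson 95% intervals (scipy 1.17.1). With 1 library per arm there was no test and no p-value. The marking rule was tested on simulated data and recovered 200 of 200 genes in each list.

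The genes, pathway groups and lists were chosen with earlier results of these data known. All 45 genes are named. Other genes are named where an end lies within 1 kb of the same region or gene end, and marker genes and other repair genes as examples chosen after their values were seen. In each pathway, genes in 1 list alone or in neither came first, then those in both by -log10 q in sg3. The genes whose promoter is printed or mapped were picked after their values were seen. The result for a list of markers of other cell types is not reported here.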

Additional observations from a re-analysis of the deposited data

How the results depend on the processing

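The counts of marked genes were recomputed under 10 other settings, of which the use of any listed start was chosen after seeing the data. Of 62 alternative values, 52 were within 1.5 times the reported count. The exceptions were mostly from asking that a region cover the gene end itself, where the counts were 11 genes in sg3, 3 in V2, 3 in both lists, 8 in sg3 alone, 0 in V2 alone and 34 in neither. The shares were 24.4% of repair genes against 18.8% of all genes in sg3, 6.67% against 7.4% in V2, 6.67% against 7% in both and 75.6% against 80.8% in neither, so the higher share in V2 and in both lists was lost. The V2-only count was 2 when the summit had to lie within 1 kb, with MDC1 and PARP2, while ERCC1 went from both lists to neither and ATRIP to sg3 alone. With regions under a -log10 q of 10 removed it was 0. With an overlap of at least 50% of both regions, 16 sg3 and 16 V2 regions were shared, against 25 each. Genes in neither list ranged from 11 with a window of 2.5 kb, which added ATR and OGG1 to both lists, to 17 at a fold enrichment of at least 4, apart from the first setting. At starts alone ATRIP was in sg3 alone. No paired analysis was possible because each arm has 1 library. Depth is unknown, so a weak region missed in 1 list cannot be told from an absent one.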
